A study of Rattus norvegicus with 18 samples.

Results

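The miRNAs described here are miR-378a, miR-378b, miR-103, miR-107 and miR-33, a set known for its place in energy and lipid metabolism. They were chosen by name: every entry of the count table whose name after the rat prefix is one of these, with any arm, and with 10 or more counts over the 18 libraries. Of 10 entries with such names among 763 known miRNAs (909 entries with the predicted candidates), 8 met this minimum. They were rno-miR-378a-3p, rno-miR-378a-5p, rno-miR-378b, rno-miR-103-3p, rno-miR-103-1-5p, rno-miR-107-3p, rno-miR-33-5p and rno-miR-33-3p. The remaining entries, rno-miR-103-2-5p with 4 counts and rno-miR-107-5p with 1 count in all, were not followed further.

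Small RNA was sequenced from the gastrocnemius, a calf muscle, of male Brown Norway rats, in 3 groups of 6 animals. Young AL rats were 6 months old and fed ad libitum, old AL rats were 28 months old and fed ad libitum, and old CR rats were 28 months old and had been held from early adulthood on caloric restriction (CR), at 55% of the intake of freely fed rats. There was no young CR group, so old CR against young AL compares age and diet together. Each library held 34940346 to 83110905 counts, of which the miR-1 family, the dominant miRNAs of muscle, took 60.7 to 86.8%. Here and below, that family stands for 4 entries, which include any entry with nearly the counts of a family member. Entries with nearly the same counts all enter the totals, so these are shares of counts and not of reads.

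Primary miRNA transcripts are cut into a hairpin, and either arm of the hairpin (5p or 3p) can give a mature miRNA that represses mRNAs paired with its seed, the bases near its 5′ end. miR-378a lies inside the gene of PGC-1β, a coactivator of mitochondrial genes, and is known as a regulator of mitochondrial and lipid metabolism in muscle and other oxidative tissues. miR-103 and miR-107 lie inside genes of pantothenate kinases, which start coenzyme A synthesis, and are known for lowering insulin sensitivity. miR-33 lies inside the gene of the sterol-regulated transcription factor SREBP2 and is known for repressing cholesterol export and fatty acid oxidation.

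The mature sequences are shown because they decide which of these entries can share reads and which can share targets. They are the RefSeq sequences of the GRCr8 assembly, written 5′ to 3′, with the seed (bases 2 to 8) in capitals.
rno-miR-378a-3p: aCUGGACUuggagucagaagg
rno-miR-378a-5p: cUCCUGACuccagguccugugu
rno-miR-103-3p: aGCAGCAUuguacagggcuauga
rno-miR-107-3p: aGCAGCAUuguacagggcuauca
rno-miR-33-5p: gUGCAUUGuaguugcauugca
rno-miR-33-3p: cAAUGUUUccacagugcauca

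miR-103-3p and miR-107-3p had the same seed and were identical at 22 of 23 bases. The substitution from miR-103-3p to miR-107-3p was G22C, with positions counted from 1 at the 5′ end. A read that ends before this base fits both of them, and how the authors assigned such reads is not given in the sources used here. No other known miRNA of the table with a RefSeq sequence had the seed of any sequence shown, and the arms of miR-378a and of miR-33 had 4 different seeds. The RefSeq sequences used held none for miR-378b or miR-103-1-5p, so whether miR-378b shares a seed or reads with miR-378a was not checked. In the RefSeq annotation, each of these hairpins lay within the span of a host gene and on its strand: Mir378 in Ppargc1b (PGC-1β), Mir107 in Pank1, the copies Mir103a1 and Mir103a2 in Pank3 and Pank2, and Mir33 in Srebf2. Mir378b lay within the span of Ncoa2, a nuclear receptor coactivator. Host transcripts were not measured, since the libraries held small RNA.

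The miR-378a entries had near copies in the table. rno-miR-3557-5p held 17905439 counts over the 18 libraries against 17204461 for miR-378a-3p, and rno-miR-3557-3p held 182299 against 194944 for miR-378a-5p. Within a library, the ratio of the first pair ran from 1.03 to 1.06 and that of the second from 0.907 to 0.957, so that both pairs were within 10% of each other in 18 of 18 libraries. The miR-3557 sequences are shown with the bases that are the exact reverse complement of the miR-378a arm in capitals.
rno-miR-3557-5p: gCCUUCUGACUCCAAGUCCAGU
rno-miR-3557-3p: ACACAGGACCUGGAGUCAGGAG

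All 21 bases of miR-378a-3p and all 22 bases of miR-378a-5p were matched in this way, and RefSeq places the miRNAs on opposite strands. Sequencing was paired-end and the library kit kept strand, but the strand setting of the counting is not given in the sources used here. Reads of miR-378a and of its antisense partner can therefore not be told apart, and every value of miR-378a-3p and miR-378a-5p below carries this limit.

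**Figure D1:**
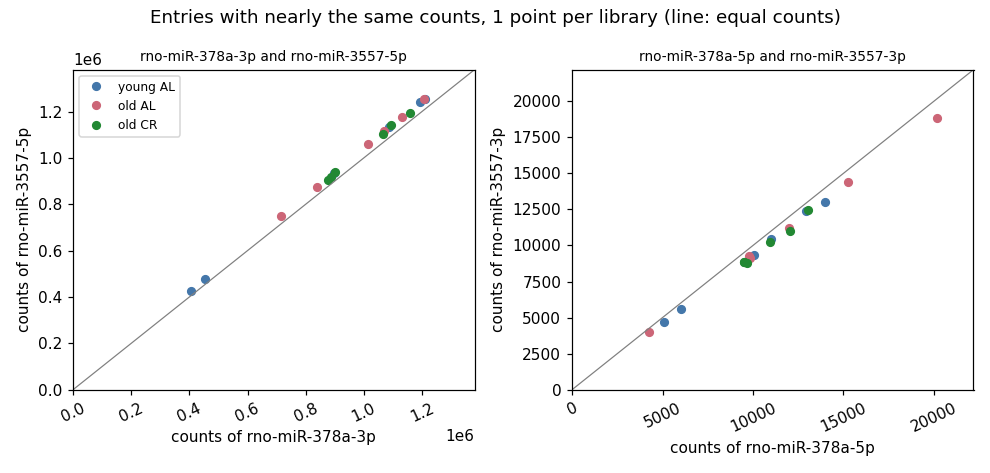
Raw counts of rno-miR-3557-5p against rno-miR-378a-3p (left) and of rno-miR-3557-3p against rno-miR-378a-5p (right), 1 point per library, coloured by group, with the line of equal counts. The points run close to the line, with ratios of 1.03 to 1.06 on the left and 0.907 to 0.957 on the right.

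The members spanned a wide range of levels. Levels are given as CPM, counts brought to a common library size, after TMM scaling for differences in composition, and are not divided by length, since the sequences shown were all 21 to 23 bases long. Over the 18 libraries, miR-378a-3p averaged 15375 ± 2896 CPM (SD, n = 18) and ranked 7 among the 763 known miRNAs, a rank that counts the near copies above it as separate entries. It was followed by miR-378b at 1257 ± 291 CPM (rank 31), miR-103-3p at 217 ± 37.9 CPM (rank 63), miR-378a-5p at 172 ± 40.1 CPM (rank 65) and miR-107-3p at 39.5 ± 4.74 CPM (rank 108). The arms of miR-33 were near the floor of the data, with 174 counts for miR-33-5p and 150 for miR-33-3p over all libraries, equal to 0.160 ± 0.0613 and 0.131 ± 0.0468 CPM. miR-103-1-5p, the passenger arm of a miR-103 hairpin, had 15 counts, in 11 of 18 libraries.

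Neighbours in this order had separate ranges over the libraries with 2 exceptions. miR-103-3p exceeded miR-378a-5p in 13 of 18 libraries, and miR-33-5p exceeded miR-33-3p in 12 of 18 with 2 libraries equal. In both pairs the ranges overlapped, and the order inside them was not tested within libraries. Together the miR-378 entries made up 1.12 to 2.51% of a library's counts, or 5.91 to 8.90% when the miR-1 family was left out of the total, and miR-103-3p with miR-107-3p made up 0.0165 to 0.0510%. The totals include the miR-3557 entries, so these shares too are of counts and not of reads.

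**Figure D2:**
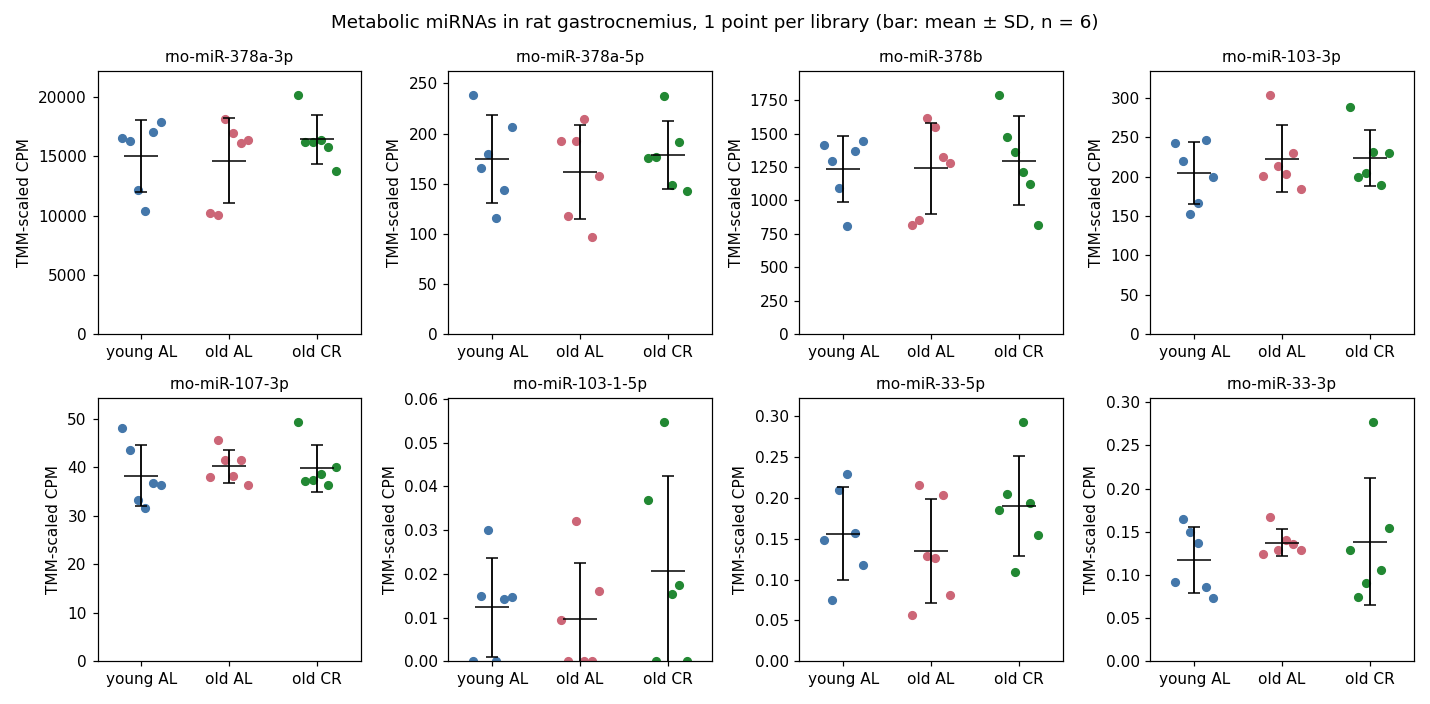
TMM-scaled CPM of the 8 members (vertical axis, linear from 0) in young AL, old AL and old CR muscle, 1 point per library, with the group mean and SD as a bar (n = 6). The 3 groups overlap in every panel, and miR-378a-3p is lowest, at 10020 to 12134 CPM, in 4 libraries that belong to the young AL and old AL groups.

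No member passed the test in any comparison. A miRNA counted as called when its fold change was 1.5 or more either way and its adjusted p no higher than 0.05. Between old AL and young AL, a contrast of age, edgeR called 0 of the 7 members tested, against 3.28% of all 732 entries tested. None had an unadjusted p under 0.05 (23.4% of all entries), DESeq2 called none (11.5%), and none was without overlap between the groups (3.55%). miR-103-1-5p had too few counts in these 12 libraries to be tested.

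Between old CR and young AL, 0 of 8 members were called by edgeR (9.32% of all 730 entries), 0 had an unadjusted p under 0.05 (25.5%), 0 were called by DESeq2 (14.9%), and 0 were without overlap (5.75%). For old CR against old AL, a contrast of diet at a fixed age, edgeR called 0 of 8 (0.272% of all 736 entries), 0 had an unadjusted p under 0.05 (12%), and 0 were without overlap (0.543%). DESeq2 called none there either (2.58%), although it gave miR-33-5p, miR-33-3p and miR-103-1-5p no adjusted p. The comparisons share groups of libraries with each other and are not independent.

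Adjusted p-values of the members in edgeR's quasi-likelihood test ran from 0.715 to 0.984 in old AL against young AL, from 0.703 to 0.963 in old CR against young AL and from 0.641 to 0.998 in old CR against old AL. These values do not show equal levels, so the 95% intervals of the differences are given with each miRNA. The interval lay wholly between 0.667-fold and 1.5-fold for 4 of 7, 5 of 8 and 4 of 8 members in these comparisons, against 10.8%, 13.2% and 13.9% of all entries tested. Members with these narrow intervals were among miR-378a-3p, miR-378a-5p, miR-378b, miR-103-3p and miR-107-3p, while those of the miR-33 arms and of miR-103-1-5p were wider. The abundant members ranked from 7 to 108 among the 763 known miRNAs. No share was taken over entries of like level, so these shares do not mark the members as steadier than such entries.

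**Figure D3:**
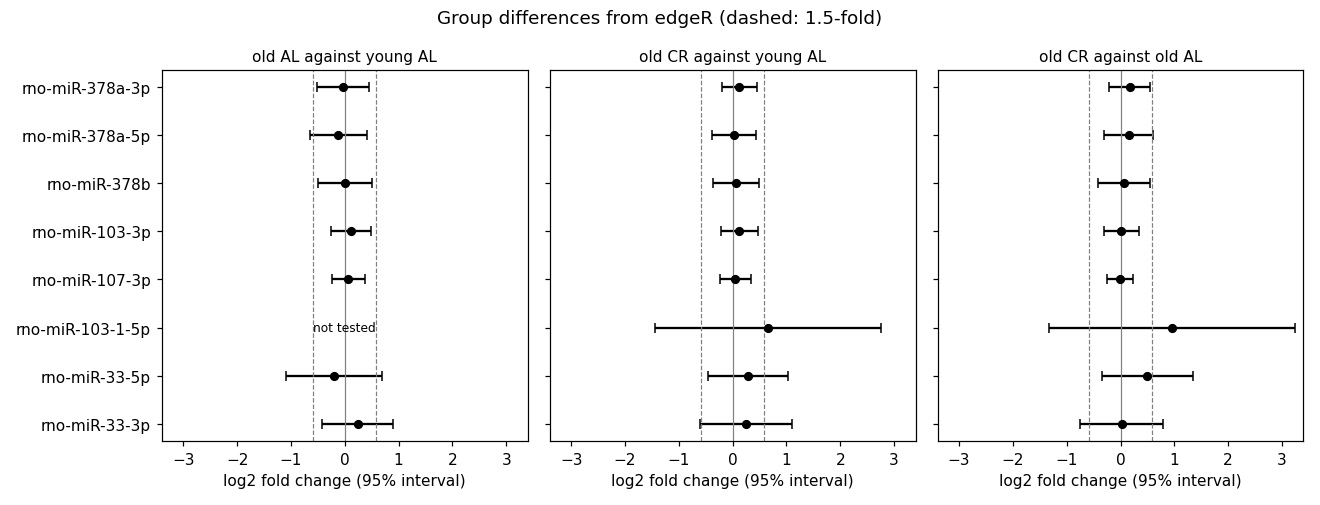
log2 fold changes of the 8 members from edgeR (points) with their 95% intervals (bars) in the 3 comparisons, with dashed lines at a 1.5-fold difference either way. Every interval includes 0, and those of miR-33-5p, miR-33-3p and miR-103-1-5p reach past a dashed line wherever tested. That of miR-378a-5p does so in old AL against young AL (-0.65) and in old CR against old AL (0.60).

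miR-378a-3p, the guide arm, stood at 10349 CPM in the lowest, 16433 in the median and 17898 in the highest young AL library. The corresponding values were 10020, 16256 and 18137 CPM in old AL muscle, and 13771, 16217 and 20197 CPM in old CR muscle. The medians of the 3 groups were close to each other and all groups overlapped, while the old CR group had no library among the 4 lowest. The mean was 15043 ± 3047 CPM in young AL, 14644 ± 3572 in old AL muscle and 16437 ± 2085 in old CR muscle (SD, n = 6 each).

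The fold change of miR-378a-3p was 0.976 in old AL against young AL (95% interval 0.700 to 1.36, adjusted p = 0.968, edgeR). It was 1.09 in old CR against young AL (0.866 to 1.37, adjusted p = 0.710) and 1.13 in old CR against old AL (0.867 to 1.46, adjusted p = 0.758). A change of 1.5-fold in either direction was thus outside the interval in all 3 comparisons.

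The 4 libraries with the lowest miR-378a-3p were all freely fed. Young AL replicates 3 and 4 stood at 12134 and 10349 CPM and old AL replicates 7 and 8 at 10220 and 10020 CPM, whereas the other 14 libraries lay between 13771 and 20197 CPM. The young pair had the smallest totals of the study, 34940346 and 40785602 counts. The old pair had the largest TMM factors, 2.14 and 1.37 against 0.639 to 1.28 elsewhere, and replicate 7 had the smallest miR-1 share, 60.7%. The 5 marker miRNAs of striated muscle summed to 70276 and 74488 CPM in the old pair, ranks 18 and 17 of the 18 libraries. In the young pair they summed to 123228 and 130394 CPM, ranks 10 and 5. Whether depth or composition had a part in the low miR-378a-3p values was not tested.

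miR-378a-5p, the other arm of the hairpin, ran from 116 CPM over a median of 173 to 239 CPM in young AL muscle. It ran from 96.4 over 175 to 215 CPM in old AL muscle and from 143 over 176 to 238 CPM in old CR muscle. The 3 medians lay within the range of each group. Its log2 fold change was -0.12 ± 0.24 (SE) in old AL against young AL, 0.03 ± 0.19 in old CR against young AL and 0.15 ± 0.21 in old CR against old AL, with 95% intervals of -0.65 to 0.41, -0.38 to 0.43 and -0.30 to 0.60.

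miR-378b, a related miRNA from a separate hairpin, had 805, 1331 and 1442 CPM in the lowest, the median and the highest young AL library. The values were 814, 1300 and 1619 CPM in old AL muscle, and 818, 1290 and 1790 CPM in old CR muscle. All 3 groups began at almost the same level and overlapped over most of their range. The fold change was 1.01 in old AL against young AL (95% interval 0.710 to 1.43), 1.05 in old CR against young AL (0.778 to 1.41) and 1.05 in old CR against old AL (0.751 to 1.47).

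miR-378b followed miR-378a-3p from library to library more closely than the arms of miR-378a followed each other. Across the 18 libraries, Spearman's rho of log2 CPM was 0.872 between miR-378a-3p and miR-378b and 0.375 between miR-378a-3p and miR-378a-5p. These are descriptions over libraries that share groups and scaling, and how reads fitting more than 1 entry were counted is not known. One old CR library stood out in the first pair: replicate 18 had the lowest miR-378a-3p and miR-378b of its group, at 13771 and 818 CPM.

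The balance within the miR-378 family was measured as a ratio of counts inside each library, which does not depend on scaling between libraries. miR-378a-3p outnumbered miR-378a-5p by a ratio of 88.4 ± 19.1 in young AL, 97.2 ± 38.5 in old AL muscle and 94.1 ± 17.5 in old CR muscle (SD, n = 6 each), and so made up 98.9% of the counts of both arms over all libraries. The ratio was lowest at 53.1 in old AL replicate 7 and highest at 168 in old AL replicate 11, so the extremes of the study lay in a single group. On the log2 scale the groups differed by 0.08 (old AL against young AL, p = 0.771), 0.10 (old CR against young AL, p = 0.582) and 0.02 (old CR against old AL, p = 0.946), in exact two-sided permutation tests over 924 arrangements.

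miR-378a-3p outnumbered miR-378b by a ratio of 12.2 ± 0.639 in young AL, 11.9 ± 0.740 in old AL muscle and 13.1 ± 2.20 in old CR muscle. The ratio stayed between 11.0 and 12.9 in the freely fed libraries. Old CR replicates 16, 17 and 18 lay above these, at 13.5, 14.1 and 16.8. Neither the wider spread in old CR muscle nor a group difference in this ratio was tested.

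miR-103-3p, the more abundant of the pantothenate kinase miRNAs, ran from 153 CPM over a median of 210 to 246 CPM in young AL muscle. It ran from 184 over 209 to 304 CPM in old AL muscle and from 189 over 217 to 288 CPM in old CR muscle. The lowest values lay in young AL replicates 3 and 4, at 153 and 167 CPM, and the highest in old AL replicate 8, at 304 CPM, with overlap between all groups. The fold change was 1.08 in old AL against young AL (95% interval 0.839 to 1.39, adjusted p = 0.765, edgeR), 1.09 in old CR against young AL (0.861 to 1.38, adjusted p = 0.717) and 1.01 in old CR against old AL (0.807 to 1.26, adjusted p = 0.998).

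miR-107-3p had the smallest spread of the members. It ran from 31.7 CPM over a median of 36.7 to 48.0 CPM in young AL, from 36.4 over 39.8 to 45.6 CPM in old AL muscle and from 36.3 over 38.0 to 49.4 CPM in old CR muscle. The coefficient of variation was 16.4, 8.28 and 12.2% in these groups. The fold change was 1.05 in old AL against young AL (95% interval 0.844 to 1.29), 1.04 in old CR against young AL (0.845 to 1.27) and 0.995 in old CR against old AL (0.838 to 1.18). These were the narrowest intervals among the members in each comparison.

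miR-103-3p and miR-107-3p varied together over the libraries, with a Spearman's rho of 0.827 (18 libraries, described without a test). Their sequences differ at a single base, as shown above, and reads fitting both cannot be told apart. Within a library miR-103-3p outnumbered miR-107-3p by a ratio of 5.35 ± 0.711 in young AL, 5.50 ± 0.593 in old AL muscle and 5.60 ± 0.309 in old CR muscle (SD, n = 6 each).

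The log2 ratio differed by 0.04 (old AL against young AL, p = 0.628), 0.07 (old CR against young AL, p = 0.400) and 0.03 (old CR against old AL, p = 0.697) in the exact permutation test, and after Benjamini-Hochberg adjustment over the 6 ratio comparisons no p was below 0.925. The smallest p that 6 against 6 libraries allow was 0.00216. The highest ratios were 6.68 in young AL replicate 5 and 6.67 in old AL replicate 8. Old AL replicate 8 also had the highest summed level of the 4 leukocyte marker miRNAs, 525 CPM, against 97.4 to 206 CPM in the other libraries, and the part of these cells in its ratio was not tested.

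**Figure D4:**
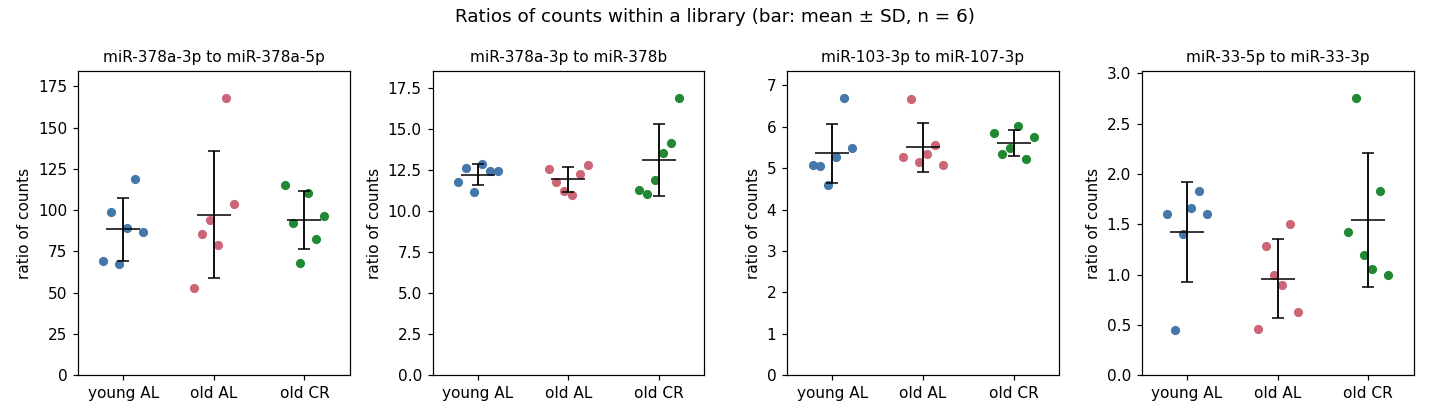
Ratios of raw counts inside each library for 4 pairs of members (vertical axes, linear from 0) in young AL, old AL and old CR muscle, 1 point per library, with the group mean and SD as a bar (n = 6). The ratio of miR-378a-3p to miR-378a-5p spreads from 53.1 to 168 within the old AL group. That of miR-378a-3p to miR-378b is highest in old CR replicates 16, 17 and 18, at 13.5, 14.1 and 16.8.

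miR-103-1-5p had 4 counts over the 6 young AL libraries, 4 over the old AL and 7 over the old CR libraries, with at most 3 in any library. By counting error alone, a count of 0 in a library allows up to 3 counts, and the highest library had as many. Its fold change was bounded only loosely, with a 95% interval of 0.368 to 6.73 in old CR against young AL and 0.397 to 9.44 in old CR against old AL.

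Both arms of miR-33 were counted in 18 of 18 libraries, but with few counts. miR-33-5p, the arm known for repressing the cholesterol exporter Abca1, had 5 to 11 counts per library in young AL, 5 to 18 in old AL muscle and 6 to 19 in old CR muscle. Scaled to CPM, the lowest, median and highest libraries were 0.0750, 0.152 and 0.229 in young AL, 0.0573, 0.128 and 0.215 in old AL, and 0.109, 0.189 and 0.292 in old CR muscle. The old CR median lay above the others and inside their ranges.

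The log2 fold change of miR-33-5p was -0.19 ± 0.41 (SE) in old AL against young AL, 0.29 ± 0.34 in old CR against young AL and 0.50 ± 0.39 in old CR against old AL. The last had the lowest unadjusted p of any member in the study, 0.222, with an adjusted p of 0.641 in edgeR's quasi-likelihood test and a 95% interval of 0.788-fold to 2.53-fold. The interval held both no change and a 2-fold rise.

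miR-33-3p had 5 to 11 counts per library in young AL, 6 to 14 in old AL muscle and 4 to 18 in old CR muscle. The mean was 0.117 ± 0.0381 CPM in young AL, 0.138 ± 0.0158 in old AL muscle and 0.139 ± 0.0735 in old CR muscle (SD, n = 6 each), and all groups overlapped. The fold change was 1.18 in old AL against young AL (95% interval 0.749 to 1.86), 1.19 in old CR against young AL (0.653 to 2.16) and 1.02 in old CR against old AL (0.596 to 1.74). The arms of miR-33 were nearly balanced, with 53.7% of their summed counts on the 5p arm, in contrast to the 98.9% on the 3p arm of miR-378a. By group this share of the 5p arm was 56.3% in young AL, 48.2% in old AL muscle and 56.9% in old CR muscle.

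The direction of the small differences depended on scaling. After TMM, all 8 members had a log2 fold change above 0 in old CR against young AL, between 0.03 and 0.65, beside 407 of 730 entries above 0. With library totals in place of TMM, the median over all entries moved by -0.13 (log2), and miR-378a-3p, miR-378a-5p, miR-378b, miR-103-3p and miR-107-3p were then below 0. No direction is read from these values.

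The known miRNAs at a mean of 10 CPM or more whose log2 CPM over the 18 libraries was most like that of each abundant member were found by Spearman's rho. The members themselves and entries holding a member's own counts, such as miR-3557-5p for miR-378a-3p, were left out of the candidates. For miR-378a-3p these were miR-361-5p (0.763), miR-181a-2-3p (0.744) and miR-10b-5p (0.711), with a median of 0.126 over all 164 candidates. miR-378b had miR-361-5p and miR-181a-2-3p in common with it (0.884 and 0.851), besides miR-3557-5p (0.866), the antisense entry of miR-378a-3p. miR-378a-5p stood with another set, let-7d-3p (0.889), miR-328a-3p (0.868) and the muscle miRNA miR-133a-3p (0.822).

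For miR-103-3p the nearest were miR-10a-5p (0.647), miR-3596a (0.631) and let-7c-5p (0.610), and for miR-107-3p they were miR-191a-5p (0.738), miR-322-3p (0.635) and miR-185-5p (0.624). The 3 nearest miRNAs of miR-103-3p and the 3 of miR-107-3p did not overlap, and lower places were not compared. All of these values share libraries, depth and scaling.

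A list of 33 other miRNAs known from lipid and cholesterol handling, insulin and glucose handling or mitochondrial biogenesis was read from the same fits, and 32 of them were tested. The list was drawn up with earlier results of these data known. Of these 32, 1 rose and 0 fell in old AL against young AL, a share near the 3.28% of all entries called there. The median log2 fold change of the list was 0.11 there, against 0.06 over all entries. A further comparison, old CR against young AL, had 2 that rose and 1 that fell, again near the share of all entries, 9.32% (medians 0.17 and 0.08). For old CR against old AL edgeR called 0 (0.272% of all entries), with 1 higher and 1 lower at an unadjusted p under 0.05 (12%) and 0 called by DESeq2 (2.58%). The medians were -0.02 and 0.01.

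The miRNA that rose in both comparisons with young AL was miR-375-3p, known from pancreatic islets and insulin secretion. It averaged 0.154 CPM in young AL, 0.994 in old AL muscle and 0.446 in old CR muscle, with a log2 fold change of 2.64 ± 0.62 (SE, adjusted p = 0.0376, edgeR) and 1.51 ± 0.35 (adjusted p = 0.0212). The young AL mean was at the level of the miR-33 arms, 0.160 and 0.131 CPM over all libraries, and so near the floor of the data. DESeq2 called miR-375-3p in both comparisons as well (adjusted p = 0.00072 and 0.0025). All 6 old CR libraries, and 5 of the 6 old AL libraries, lay above every young AL library. The edgeR call in old AL muscle was lost on leaving out any young AL library or old AL replicate 7, 8, 9 or 12. In the paper's RT-qPCR, where it is named miR-375-5p, differences between the groups were not significant.

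miR-122-5p, the main miRNA of liver and a regulator of cholesterol synthesis, averaged 12.5 CPM in young AL, 255 in old AL muscle and 145 in old CR muscle. It rose in old CR against young AL by 3.53 ± 0.92 on the log2 scale (adjusted p = 0.0329, edgeR), and had a value of 4.36 ± 1.16 between old AL and young AL (adjusted p = 0.0710). In the latter comparison DESeq2 called it (adjusted p = 1.1e-05), and all 6 old AL libraries lay above every young AL library. It is itself 1 of the 2 liver markers, whose summed level was 0.570 to 38.7 CPM in young AL, 49.2 to 777 in old AL muscle and 102 to 187 CPM in old CR muscle, with none at 0. Whether liver RNA has a part in this was not tested. By RT-qPCR, the paper reports this miRNA as higher in old than in young muscle, and as inhibited by CR. In the libraries, its log2 fold change in old CR against old AL was -0.81 ± 0.56 (SE, adjusted p = 0.577, edgeR).

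miR-494-3p, linked to mitochondrial biogenesis, averaged 3.54 CPM in young AL and 1.81 in old CR muscle. Between these groups it fell by 0.97 ± 0.24 in log2 (SE, adjusted p = 0.0279, edgeR). Without old CR replicate 13, 16 or 18, the list had 1 miRNA called in this comparison in place of 3. With library totals in place of TMM, none of the list was called in any comparison.

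**Figure D5:**
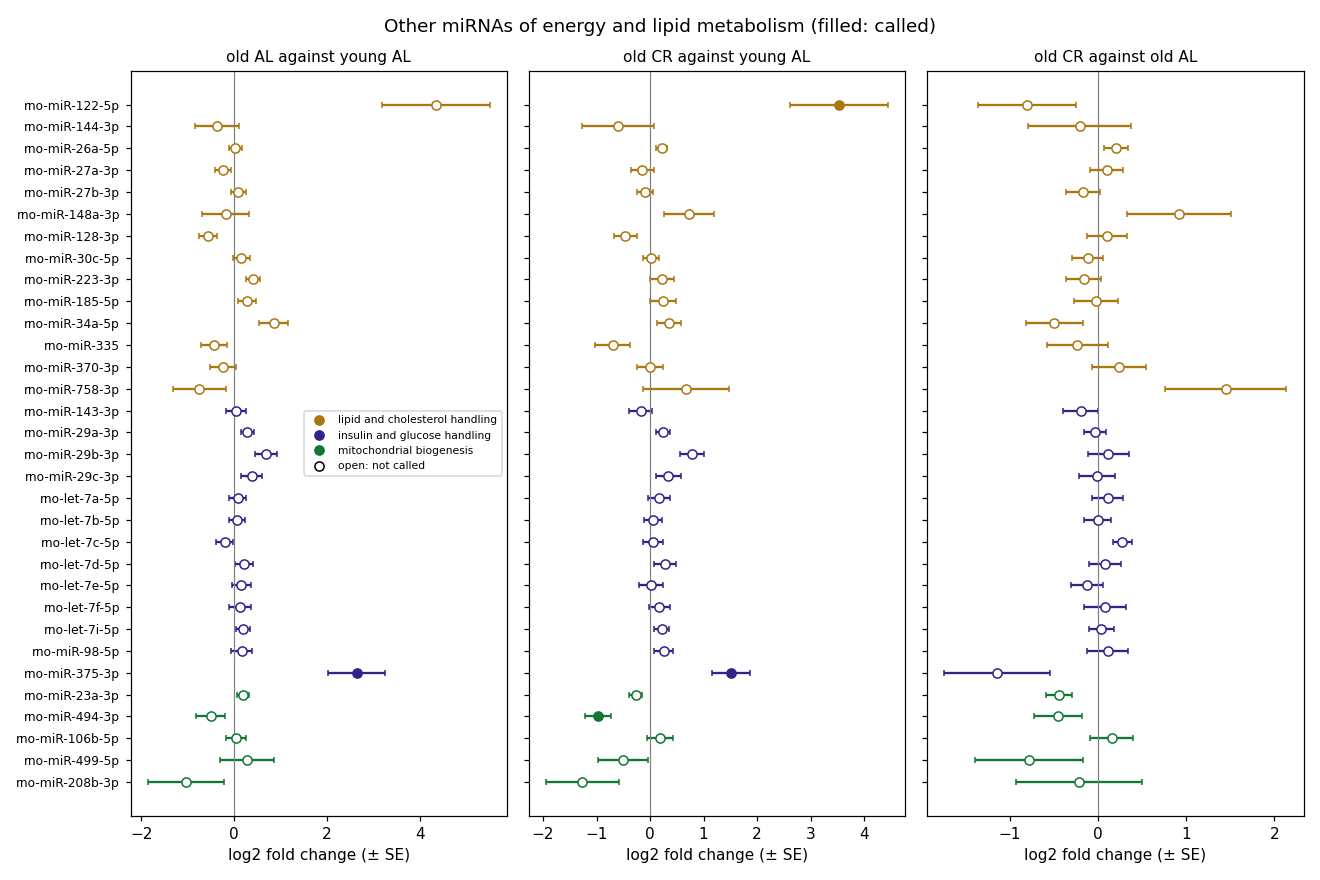
log2 fold changes from edgeR with their SE for the 32 tested miRNAs of the metabolic list in the 3 comparisons, coloured by sublist, with filled points for those called. The filled points are miR-375-3p at 2.64 in old AL against young AL, and miR-122-5p at 3.53, miR-375-3p at 1.51 and miR-494-3p at -0.97 in old CR against young AL.

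Markers of the labelled tissue were abundant: the 5 miRNAs of striated muscle summed to 70276 to 187723 CPM in each library, with none at 0. The 3 erythroid markers summed to 3.29 to 11.7 CPM and the 2 endothelial markers to 3831 to 8098 CPM. The 2 neural markers summed to 6.75 to 20.3 CPM in young AL, 11.0 to 34.5 in old AL muscle and 18.6 to 147 CPM in old CR muscle. As in any bulk sample, fewer cells of a type and less of a miRNA per cell cannot be told apart.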

How the data were processed

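Small RNA libraries from the gastrocnemius of 18 rats (6 each of young AL, old AL and old CR) were used. The authors trimmed reads with Cutadapt 1.2.1 and Sickle, identified known and candidate miRNAs with miRDeep2 and deposited raw read counts per entry, which are whole numbers without normalization. The submitters' processing notes also name Bowtie2 2.4.0 and Rnor_6.0. The paper names featureCount as the tool behind its raw counts. For the strand setting and for reads shared between entries, the sources used here give nothing. All columns were matched to samples and 0 were left unused.

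Counts were scaled with TMM and tested with edgeR 4.0.16 (R 4.3.3; robust quasi-likelihood, two-sided, pairwise over 12 libraries) for all entries with at least 10 counts, with Benjamini-Hochberg adjustment over the whole table. Calls needed an adjusted p no higher than 0.05 and a 1.5-fold change or more. SE is the log2 fold change divided by the square root of F, and the 95% intervals use the t distribution with the fit's degrees of freedom. Ratios of counts (prior count 0.5) were compared by exact permutation over 924 arrangements in R. Spearman's rho was computed with SciPy 1.17.1. The edgeR test was checked on simulated counts for old AL against young AL, and the other tests were not checked in this way. Alternatives were DESeq2 1.42.0, other scalings, filters and fits, and leaving out libraries. Leaving out the miR-3557 entries was chosen after seeing the data.

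Members were named by rule, as were the metabolic list, the marker lists and, for each of 5 abundant members, the 3 most alike miRNAs by Spearman's rho. The members and lists were chosen with earlier results of these data known. The p-values measure the spread between animals. Intervals cover the replicates' spread, and the limit of 3 counts for a count of 0 covers counting error only.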

Additional observations from a re-analysis of the deposited data

Results flagged for a closer look

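In a check of 30 groups of 6 values (the members' log2 CPM and the log2 ratios in each group) for a library far from the others, 2 were flagged. Chance flags about 1 group in 20. miR-107-3p was highest in old CR replicate 13, at 5.63 on the log2 CPM scale against 5.32 in the next library, a gap of 0.683 of the group's range. The log2 ratio of miR-103-3p to miR-107-3p was highest in old AL replicate 8, at 2.74 against 2.47 in the next library, a gap of 0.670 of the range.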

How the results depend on the processing

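No paired analysis was possible because the groups share no replicate numbers. The count of members called was 0 in all 3 comparisons under every alternative run, and no member's call changed. Of 532 refitted log2 fold changes of members, 65 changed sign, and the lowest adjusted p was 0.345; the cause of these sign changes was not tested.

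Old AL against young AL gave a log2 fold change of 0.081 for miR-378a-5p with library totals, 0.010 for miR-378a-5p and 0.044 for miR-378a-3p without the 2 young AL libraries numbered apart from the rest, and -0.050 with filterByExpr and -0.0070 with known miRNAs only for miR-378b. Old CR against young AL with library totals gave -0.028 for miR-378a-3p, -0.073 for miR-378a-5p, -0.11 for miR-378b, -0.014 for miR-103-3p and -0.071 for miR-107-3p. It gave for miR-378a-5p -0.039 with filterByExpr, -0.016 without a filter, -0.019 with totals without the miR-1 family and -0.078 with upper-quartile factors, for miR-378b -0.0034 with filterByExpr and -0.018 with upper-quartile factors, and for miR-107-3p -0.010 with filterByExpr, -0.0043 with totals without the miR-1 family and -0.053 with upper-quartile factors. Old CR against old AL with library totals gave -0.0031 for miR-378a-3p, -0.15 for miR-378a-5p, -0.13 for miR-378b, -0.29 for miR-103-3p and -0.27 for miR-33-3p. It gave for miR-103-3p -0.034 with filterByExpr, -0.13 with totals without the miR-1 family and -0.077 with upper-quartile factors. For miR-378b and miR-33-3p, totals without the miR-1 family gave -0.032 and -0.12, and upper-quartile factors gave -0.042 and -0.099.

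The median over all entries moved by 0.17, -0.13 and -0.28 with library totals, and in old CR against old AL by -0.13 with totals without the miR-1 family and -0.11 with upper-quartile factors.

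Leaving out 1 library at a time, the log2 fold change between old AL and young AL ran from -0.13 to 0.062 for miR-378a-3p, -0.23 to 0.0095 for miR-378a-5p and -0.097 to 0.11 for miR-378b. In old CR against young AL it ran from -0.065 to 0.14 for miR-378a-5p, -0.043 to 0.17 for miR-378b, -0.015 to 0.13 for miR-107-3p and -0.070 to 0.38 for miR-33-3p. In old CR against old AL it ran from -0.045 to 0.18 for miR-378b, -0.075 to 0.12 for miR-103-3p, -0.081 to 0.032 for miR-107-3p and -0.30 to 0.15 for miR-33-3p. The log2 ratio of miR-378a-3p to miR-378a-5p ran from -0.097 to 0.24 in old AL against young AL and from -0.14 to 0.19 in old CR against old AL, and that of miR-103-3p to miR-107-3p from -0.013 to 0.11 in old AL against young AL. The lowest p of any ratio, 0.0281 (adjusted 0.169, exact permutation), was that of miR-103-3p to miR-107-3p in old CR against young AL without young AL replicate 5.

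Of the metabolic list, 1 miRNA was called between old AL and young AL. This was 0 with library totals, with totals without the miR-1 family and without the 2 young AL libraries numbered apart, 2 with known miRNAs only and with a single fit over 3 groups, 3 with DESeq2, and 0 to 1 when leaving out 1 library. In old CR against young AL 3 were called, 4 with DESeq2 and with known miRNAs only, 0 with library totals and 1 to 3 when leaving out 1 library. The counts of 174 and 150 for the miR-33 arms and 15 for miR-103-1-5p limit what can be said of them.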
